A study of Mus musculus with 8 samples.

Results

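The cadherin and protocadherin families were taken as every gene in the count matrices whose symbol begins with Cdh and a number, or with Pcdh. The choice gave 92 of 32285 genes. Of these, 57 belong to the clustered protocadherins (14 alpha, 22 beta and 21 gamma symbols, with Pcdha11 listed under 2 entries that were counted apart). The other 35 comprise 5 classical type I cadherins, 13 type II cadherins, the GPI-anchored Cdh13, 3 cadherins of the 7-domain and other groups, the tip-link pair Cdh23 and Pcdh15, 4 delta-1 protocadherins, 5 delta-2 protocadherins and 2 other non-clustered protocadherins.

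Cadherins are calcium-dependent adhesion proteins of the cell surface that bind mostly the same or a closely related cadherin on a neighbouring cell, and inside the cell the classical ones connect to actin through catenins. Delta protocadherins are adhesion and signalling proteins that steer neurite growth and synapse formation. Clustered protocadherins are chosen by promoter in each neuron and give it a surface identity by which it recognises its own branches. In the striatum, type II cadherins and delta protocadherins are known for marking neuron classes and their inputs.

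Nuclei came from frozen striatum of mice aged 12 weeks, with no treatment, and were read with the 10x Multiome assay, which pairs nuclear RNA with open chromatin; the RNA was used here. The 8 inbred strains were the classical laboratory strains 129S1/SvImJ, A/J, C57BL/6NJ, NOD/ShiLtJ (a strain that develops autoimmune diabetes) and NZO/HlLtJ (an obese strain), and the wild-derived CAST/EiJ, PWK/PhJ and WSB/EiJ. C57BL/6NJ and NZO/HlLtJ are the spellings of the deposited table of nuclei, while the sample labels write C57BL/6J and NZO/H1LtJ. Each of 4 batches pooled nuclei of 8 mice, 1 of every strain and 4 of each sex, so that 32 mice were available, 4 per strain, and each mouse was its own animal.

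The deposited table of nuclei placed 55672 nuclei in 18 clusters, and a mouse gave between 944 and 4416 nuclei (median 1613). Summed counts of a mouse ranged from 1710451 to 9416806 in Drd1+ neurons, from 165465 to 1883033 in oligodendrocytes and from 27325 to 365425 in macrophages. Any 2 batches had between 188 and 328 barcodes in common, and nuclei were therefore identified by batch and barcode. Levels by cluster are given as CPM, the counts of a gene per 1000000 counts of the same mouse and cluster. Marker lists of a named cell class were highest in a cluster of that class, except the mural one (Rgs5, Pdgfrb and Abcc9). Its summed level was 2080 CPM in the endothelium cluster and 1438 in the cluster named mural cells. Drd1+ and Drd2+ markers were summed together and were highest in Drd2+ neurons, with 1146 CPM in the second Drd1+ cluster. Nxph1, Sst, Npy and Pvalb were also summed together, at 9203 CPM in Sst+ and 2870 in Nxph1+ interneurons. The names Drd1+ and Nxph1+ were therefore not checked by markers of their own. Neuroblast markers (Dcx, Sox11 and Top2a) were highest in the cluster named Unknown, at 1106 CPM. Markers of Drd1+ and Drd2+ projection neurons were above 0 in each cluster, with a summed level of 586 CPM in endothelium and 1004 in mural cells, against 708 in Drd1+ neurons and 1805 in Drd2+ neurons, so that the mural cluster was above the Drd1+ cluster.

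The families were spread over all cell classes of the striatum, and 27 of the 92 genes reached a mean of at least 20 CPM in their highest cluster. Clusters were built by the study from the same nuclei, so that levels between clusters are a description without a test. They are given as mean ± SD over mice with at least 10 nuclei in the cluster, for the 15 clusters with at least 3 such mice. CPM were compared for 1 gene between clusters and not between genes.

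**Figure D1:**
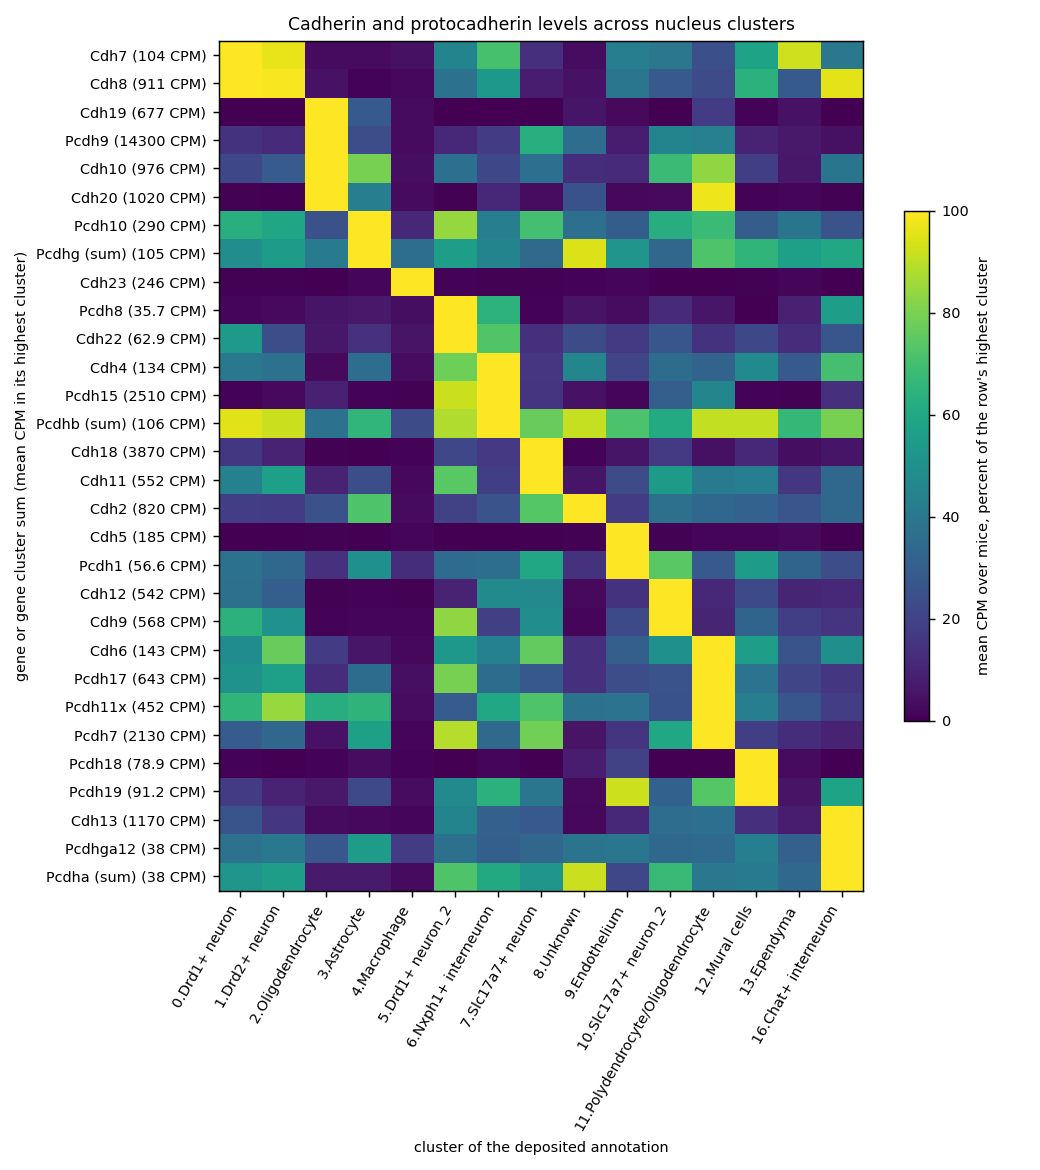
Mean CPM over mice of cadherin and protocadherin genes (vertical axis, with the mean CPM in the highest cluster) in the clusters of the deposited annotation (horizontal axis), as a percentage of each gene's highest cluster. Cdh23 and Cdh5 stand alone in macrophages and endothelium, while the summed clustered beta genes are above 20 CPM in each cluster.

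Among the classical type I cadherins, Cdh2 (N-cadherin, which holds neural progenitors and synapses together) was highest in the cluster named Unknown at 820 ± 138 CPM (n = 26 mice), followed by 605 ± 69.1 in Slc17a7+ neurons (n = 20) and 594 ± 100 in astrocytes (n = 32). In oligodendrocytes the mean of Cdh2 was 204 with an SD of 183 over 32 mice, an SD close to the mean. Cdh4 (R-cadherin) was highest in Nxph1+ interneurons at 134 ± 62.0 CPM (n = 32).

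Type II cadherins had their highest levels in different clusters. Cdh8 reached 911 ± 80.5 CPM in Drd1+ neurons and 901 ± 76.8 in Drd2+ neurons, against 9.26 ± 5.70 in astrocytes (n = 32 each), and the 2 neuron levels overlapped. Cdh7 behaved alike, with 105 ± 21.5 CPM in Drd1+ and 101 ± 16.9 in Drd2+ neurons. Cdh18 was highest in Slc17a7+ neurons, which are excitatory, at 3868 ± 889 CPM (n = 20), 4.73 times its level of 817 ± 290 in the second Drd1+ cluster. Cdh12 was highest in the second Slc17a7+ cluster at 542 ± 192 CPM (n = 16), 2.09 times its level in Nxph1+ interneurons. Cdh9, known for its role at mossy fibre synapses of the hippocampus, also had its highest mean in that cluster, at 568 ± 178 CPM, with 475 ± 116 in the second Drd1+ cluster. Cdh11 was highest in Slc17a7+ neurons at 552 ± 113 CPM, and Cdh22 in the second Drd1+ cluster at 62.9 ± 19.4.

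Other type II cadherins were highest in glia or vessels. Cdh19, a cadherin of the glial lineage, reached 677 ± 206 CPM in oligodendrocytes, 3.52 times the 193 ± 108 in astrocytes, and 1.55 ± 0.94 in Drd1+ neurons (n = 32 each). Cdh20 was at 1015 ± 153 CPM in oligodendrocytes and 989 ± 380 in the polydendrocyte and oligodendrocyte cluster (n = 27), with 112 ± 50.6 in Nxph1+ interneurons and 4.59 in Drd1+ neurons. Cdh10 was at 977 ± 208 CPM in oligodendrocytes, 815 ± 259 in the polydendrocyte and oligodendrocyte cluster and 776 ± 147 in astrocytes, levels within 1 SD of each other. Neurons had Cdh10 too, with 667 ± 235 CPM in the second Slc17a7+ cluster (n = 16), 281 ± 84.8 in Drd2+ and 213 ± 57.7 in Drd1+ neurons. Cdh5 (VE-cadherin, the adhesion protein of endothelial junctions) reached 185 ± 80.8 CPM in endothelium (n = 29), 40.9 times the 4.52 ± 11.2 of ependyma.

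The GPI-anchored Cdh13 (T-cadherin, which lacks a part inside the cell) had its highest mean in Chat+ interneurons at 1169 ± 872 CPM, resting on 3 mice, and 528 ± 150 in the second Drd1+ cluster (n = 32). The tip-link proteins, which join in the sensory hair bundles of the inner ear, were apart from each other here. Cdh23 stood at 246 ± 139 CPM in macrophages, 54.6 times the 4.52 ± 6.62 of endothelium. Pcdh15 stood at 2513 ± 976 CPM in Nxph1+ interneurons, 2309 ± 591 in the second Drd1+ cluster, 1152 ± 488 in the polydendrocyte and oligodendrocyte cluster and 28.6 ± 14.3 in Drd1+ neurons.

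Delta-1 protocadherins had their highest means in glia, with neurons close behind for some, except Pcdh1, which was highest in endothelium at 56.7 ± 26.9 CPM. Pcdh9 was at 14260 ± 3823 CPM in oligodendrocytes, 8928 ± 1475 in Slc17a7+ neurons and 2081 ± 392 in Drd1+ neurons. Pcdh7 reached 2131 ± 678 CPM and Pcdh11x 452 ± 159 in the polydendrocyte and oligodendrocyte cluster. Neurons came next, with 1893 ± 393 CPM of Pcdh7 in the second Drd1+ cluster and 382 ± 77.9 of Pcdh11x in Drd2+ neurons. Of the delta-2 protocadherins, Pcdh17 (a protein of corticostriatal synapses) was highest in the polydendrocyte and oligodendrocyte cluster at 643 ± 360 CPM. Pcdh10 (linked to the removal of synapses) was highest in astrocytes at 290 ± 40.2. The second Drd1+ cluster came next for each, with 511 ± 106 CPM of Pcdh17 and 244 ± 43.0 of Pcdh10. Pcdh19 (an X-linked gene of a childhood epilepsy) was at 91.2 ± 52.6 CPM in mural cells and 84.4 ± 42.3 in endothelium. Pcdh18 reached 78.9 ± 82.9 CPM in mural cells (n = 20), 5.17 times its endothelial level, and Pcdh8 35.7 ± 18.8 in the second Drd1+ cluster.

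Clustered protocadherins were found as sums of many low genes. The alpha sum was 19.9 ± 5.31 CPM in Drd1+ neurons against 2.77 ± 2.57 in oligodendrocytes and 1.12 ± 3.07 in macrophages. The beta sum was 101 ± 20.5 CPM in Drd1+ neurons, 106 ± 35.5 in Nxph1+ interneurons and 24.2 ± 20.2 in macrophages. Here neurons stood above macrophages, the lowest cluster for both sums, which does not set neurons apart from all other cells. The alpha sum had its highest means in Chat+ interneurons (38.0 ± 17.2 CPM, n = 3) and in the cluster named Unknown (34.9 ± 34.1). The gamma sum followed another order, with 105 ± 24.3 CPM in astrocytes, 51.6 ± 7.45 in Drd1+ neurons and 34.8 ± 21.3 in the second Slc17a7+ cluster. Alpha genes share their last exons with each other, as do gamma genes, and how reads of these shared exons were assigned is not given in the sources used here, so that the level of a single alpha or gamma gene is uncertain. For the same reason the alpha and gamma sums and shares are uncertain beside those of beta genes.

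Within single nuclei, the depth limits how many clustered genes can be seen, since 15395 Drd1+ nuclei held 17820 UMIs (unique molecular identifiers, the counted molecules) of these genes in all. Of these nuclei, with a median of 6505 UMIs of any gene, 62.5% held at least 1 UMI of any of the 57 clustered genes, 29.1% held UMIs of at least 2 of these genes and the most in 1 nucleus was 10 genes. By family, 43.5% of Drd1+ nuclei held a beta gene, 27.4% a gamma gene and 12.0% an alpha gene. Because of the shared exons, these shares do not compare the families. Macrophages, with a median of 1432 UMIs, had any clustered gene in 8.61% of nuclei and an alpha gene in 0.152%. The depths differ, and the shares were not set to a common depth, so that only the CPM above compare the clusters.

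Windows of 250 bases upstream of the RefSeq start (assembly GRCm38.p6, the build named in the submitters' processing notes) were at hand for 22 members in 25 windows, among 32851 windows of all genes. A RefSeq start need not be the outermost start of the gene: 3 windows, of Cdh12, Cdh18 and Pcdh15, lie at internal starts, Cdh18 487.6 kb and Pcdh15 725.6 kb inside the gene, and the other 22 within 2.73 kb of its outer end. Of the 25 windows, 12 overlapped a region of the deposited peak index, against 51.7% of all windows, and their median GC content was 58.4% against 52.4%. Motifs were searched by their letters on both strands, and a match is a description of letters only. The letters of a GC box, GGGCGG, were found in 9 of the 25 windows and in 32.7% of all windows. For the core promoter motif TATAAA the numbers were 2 windows and 12.4% of all windows. The E-box motif, searched as CANNTG, was met in 13 windows and in 66.2% of all. Shown are 5 members that carry strain or cell-class results, each 5′ to 3′ on the gene's strand with matches in capitals, and each overlaps 1 deposited peak. Those of Cdh18 and Pcdh15 belong to the internal starts. They are Cdh9 at chr15:16728665-16728914 (+), Cdh18 at chr15:23036213-23036462 (+), Cdh22 at chr2:165234738-165234987 (-), Pcdh15 at chr10:73821617-73821866 (+) and Cdh23 at chr10:60696491-60696740 (-).
Cdh9: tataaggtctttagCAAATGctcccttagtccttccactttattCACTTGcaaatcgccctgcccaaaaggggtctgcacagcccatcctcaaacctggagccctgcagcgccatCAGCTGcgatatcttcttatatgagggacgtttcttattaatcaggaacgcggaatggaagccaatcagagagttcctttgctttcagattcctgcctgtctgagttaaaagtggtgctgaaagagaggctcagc
Cdh18: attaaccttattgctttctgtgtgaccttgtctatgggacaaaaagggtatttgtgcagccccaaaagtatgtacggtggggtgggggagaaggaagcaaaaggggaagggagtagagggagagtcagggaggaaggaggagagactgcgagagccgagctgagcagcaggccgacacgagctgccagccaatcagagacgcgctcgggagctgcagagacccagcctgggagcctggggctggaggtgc
Cdh22: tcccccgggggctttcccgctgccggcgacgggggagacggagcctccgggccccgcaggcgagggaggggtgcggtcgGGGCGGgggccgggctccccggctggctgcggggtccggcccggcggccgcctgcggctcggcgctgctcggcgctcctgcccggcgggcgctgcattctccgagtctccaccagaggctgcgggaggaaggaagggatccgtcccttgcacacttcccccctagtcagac
Pcdh15: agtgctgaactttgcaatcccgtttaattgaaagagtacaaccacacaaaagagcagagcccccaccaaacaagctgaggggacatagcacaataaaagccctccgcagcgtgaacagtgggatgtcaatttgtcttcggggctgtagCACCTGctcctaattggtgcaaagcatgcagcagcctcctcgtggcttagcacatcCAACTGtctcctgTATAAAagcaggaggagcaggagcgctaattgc
Cdh23: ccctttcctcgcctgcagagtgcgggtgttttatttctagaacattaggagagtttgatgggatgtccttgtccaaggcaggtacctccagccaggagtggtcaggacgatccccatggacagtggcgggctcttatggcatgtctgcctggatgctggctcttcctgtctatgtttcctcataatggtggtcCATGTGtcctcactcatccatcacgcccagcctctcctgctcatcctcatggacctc
The Cdh9 window holds 3 E-box matches, the Pcdh15 window 1 TATA box and 2 E-boxes, the Cdh22 window 1 GC box in 77.6% GC, the Cdh23 window 1 E-box and the Cdh18 window none of the 3 motifs.

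The 35 non-clustered genes had a median length of 123 kb, against 17.2 kb for 21883 protein-coding genes, and some lie near each other. On chromosome 15, 5 type II genes follow each other: Cdh6 at 13028699 to 13176407, Cdh9 at 16728550 to 16857138, Cdh10 at 18818869 to 19016206, Cdh12 at 20448878 to 21598421 and Cdh18 at 22548898 to 23477491. Chromosome 8 holds Cdh8, Cdh5, Cdh11 and Cdh13, and chromosome 1 holds Cdh20, Cdh7 and Cdh19. Pcdh11x and Pcdh19 are on chromosome X, the sex of single mice was not used, and no fit held a term for sex. The peak index, 291715 regions of 999 bases with no level per strain or cluster, placed 256 regions in the 1185 kb of Cdh13, 127 in the 1554 kb of Pcdh15, 112 in the 879.1 kb of Pcdh9 and 52 in the 928.6 kb of Cdh18. For the 19 non-clustered members over 100 kb the median was 15.75 regions per 100 kb, against 17.61 for 2428 protein-coding genes of that length.

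The design asks whether the strains differ within a cell class. In each cluster with at least 3 mice of every strain, the counts of a mouse's nuclei were summed and the strain term was tested over all genes with edgeR's quasi-likelihood test and batch as a block. A gene was called at a Benjamini-Hochberg adjusted p under 0.05 over all genes of the cluster. Of the 92 genes, 53 had enough counts to be tested in at least 1 of the 9 clusters, 40 of these were called in at least 1, and 39 were tested in none (31 clustered and 8 other genes). Of all genes tested, 72.3% were called in at least 1 cluster, so that the share of the members was near that of all genes. Levels by strain are CPM on TMM-scaled library sizes, as mean ± SD over 4 mice (3 for some strains in endothelium and in the polydendrocyte and oligodendrocyte cluster), and all strains were counted on 1 genome build; the effect of strain variants on counting was not tested.

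Most members differed between strains in projection neurons, where most of all genes did so too. In Drd1+ neurons 35 of 49 members were called, against 61.7% of all genes tested. In Drd2+ neurons 31 of 43 were called, against 55.9%. The median span between the highest and lowest fitted strain was 0.91 on the log2 scale for the members and 0.65 for all genes in Drd1+ neurons, and 1.12 and 0.64 in Drd2+ neurons, and the members had fewer counts than the median gene (900 against 1955 in Drd1+ neurons). All 11 tested type II cadherins were called in Drd1+ neurons, with 12 of 15 beta, 2 of 7 gamma and 2 of 4 alpha genes. In Drd2+ neurons 8 of 10 type II cadherins, 10 of 14 beta, 1 of 5 gamma and 2 of 3 alpha genes were called.

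Cdh18, a type II cadherin, had the largest strain term of the members in Drd1+ neurons (F = 101, adjusted p = 1.32e-22). In batches 1 to 4, NOD/ShiLtJ mice had 1035, 1016, 849 and 1044 CPM and PWK/PhJ mice 335, 306, 295 and 322 CPM. The strain means ran from 986 ± 92.1 in NOD/ShiLtJ over 807 in NZO/HlLtJ, 762 in 129S1/SvImJ, 639 in WSB/EiJ, 563 in C57BL/6NJ, 531 in CAST/EiJ and 421 in A/J down to 314 ± 17.7 in PWK/PhJ. Each PWK/PhJ mouse lay below each mouse of the other strains, and neighbours in the order from NZO/HlLtJ to 129S1/SvImJ and from WSB/EiJ to CAST/EiJ overlapped. NOD/ShiLtJ overlapped with 129S1/SvImJ too, whose mouse of batch 4 had 869.8 CPM, above the 849 of the lowest NOD/ShiLtJ mouse. Against the mean of the other 7 strains, Cdh18 fell by 1.05 on the log2 scale in PWK/PhJ (SE 0.06, adjusted p = 1.43e-18), with 295 to 335 CPM in its 4 mice and 339 to 1044 in the other 28.

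Cdh22, a type II cadherin, was highest in 129S1/SvImJ, where the mice had 43.5, 43.3, 44.3 and 61.2 CPM in Drd1+ neurons. It was lowest in C57BL/6NJ (22.8, 27.1, 19.7 and 23.3 CPM) and A/J (23.6, 21.5, 24.2 and 23.6 CPM). The high and low strains did not overlap (48.1 ± 8.74 against 23.2 ± 3.04 and 23.2 ± 1.17), and the strain term had F = 20.1 and an adjusted p of 1.32e-10.

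Cdh9 ran from 460 ± 13.5 CPM in NOD/ShiLtJ (460, 471, 441 and 468) to 248 ± 14.5 in CAST/EiJ (261, 231, 242 and 261), with an adjusted p of 1.08e-08. Each CAST/EiJ mouse was below each mouse of the other strains in Drd1+ neurons, and this held in Drd2+ neurons too (181 to 194 CPM against 213 to 425). In Drd2+ neurons the strain term of Cdh9 had an adjusted p of 1.08e-12. Cdh6, whose retinal role is in wiring, was high in 129S1/SvImJ (96.1 ± 22.3 CPM), NOD/ShiLtJ (92.4) and PWK/PhJ (91.8 ± 33.6) and low in C57BL/6NJ (41.3 ± 7.51), with an adjusted p of 5.02e-05. Cdh11 stood at 313 ± 48.2 CPM in A/J and 313 ± 36.9 in C57BL/6NJ and at 204 ± 18.4 in CAST/EiJ (adjusted p = 5.31e-05). Cdh20 was low in all Drd1+ neurons, from 11.6 ± 6.59 CPM in NOD/ShiLtJ to 1.87 ± 0.99 in CAST/EiJ (adjusted p = 0.000225).

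Cdh8 and Cdh2 were called in Drd1+ neurons with spans below the median of all genes. Cdh8 spanned 0.35 on the log2 scale, from 968 ± 53.7 CPM in CAST/EiJ to 762 ± 75.7 in NOD/ShiLtJ (adjusted p = 0.000801), and in Drd2+ neurons it was not called (adjusted p = 0.166). For Cdh2, with a span of 0.48, NOD/ShiLtJ had the highest mean, 178 ± 16.2 CPM, and PWK/PhJ the lowest, 127 ± 18.5 (adjusted p = 2.05e-05). Cdh13 had a wider span of 0.82 and ran from 391 ± 62.0 CPM in WSB/EiJ to 221 ± 22.1 in PWK/PhJ (adjusted p = 0.000217). The adhesion proteins Pcdh7, Pcdh10, Pcdh17 and Pcdh1 were not called in Drd1+ neurons, with adjusted p of 0.11, 0.179, 0.298 and 0.844 and strain means of Pcdh10 between 172 ± 8.32 and 202 ± 15.3 CPM. In Drd2+ neurons, all 3 delta-2 genes tested were called.

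Pcdh11x, the X-linked delta-1 protocadherin, was lowest in CAST/EiJ, with 176, 157, 152 and 146 CPM in the 4 Drd1+ libraries. PWK/PhJ mice had 424, 383, 384 and 329 CPM. The strain term had an adjusted p of 2.2e-05, and against the other 7 strains Pcdh11x fell by 1.00 on the log2 scale in CAST/EiJ (SE 0.12, adjusted p = 9.71e-07), with 146 to 176 CPM against 205 to 424. In Drd2+ neurons CAST/EiJ was again lowest at 258 ± 23.1 CPM, while 129S1/SvImJ was highest at 439 ± 45.5 (adjusted p = 8.32e-07). Pcdh9 was highest in 129S1/SvImJ in Drd1+ neurons (2660 ± 483 CPM) and lowest in WSB/EiJ (1654 ± 134, adjusted p = 0.000228). Its Drd2+ means ran from 2268 ± 366 CPM in NOD/ShiLtJ to 1411 ± 136 in CAST/EiJ (adjusted p = 3.54e-11). The summed oligodendrocyte markers Mbp and Mog were 843 to 1024 CPM in Drd1+ neurons by strain, lowest in 129S1/SvImJ and highest in PWK/PhJ. Polydendrocyte markers in Drd1+ neurons were highest in CAST/EiJ (42.1 CPM, 31.9 to 53.5 in its mice) and lowest in 129S1/SvImJ (15.4 CPM, 11 to 18.8), and projection-neuron markers ran from 618 CPM in 129S1/SvImJ to 903 in NOD/ShiLtJ. In Drd2+ neurons polydendrocyte markers ran from 22.5 CPM in 129S1/SvImJ to 57.4 in NZO/HlLtJ, with 52.8 in CAST/EiJ. The part of these markers in the Drd1+ and Drd2+ results was not tested.

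In Drd1+ neurons, 12 of the 15 beta protocadherins tested were called, against 61.7% of all genes. Each is a gene of 1 exon in the recognition code of neurons. Pcdhb16 was at 12.3 ± 1.76 CPM in NOD/ShiLtJ, 11.8 ± 2.28 in A/J, 11.8 ± 2.02 in 129S1/SvImJ and 11.1 ± 1.95 in WSB/EiJ, and at 5.91 ± 1.03 in NZO/HlLtJ, 4.87 ± 1.45 in C57BL/6NJ, 4.58 ± 0.29 in CAST/EiJ and 3.74 ± 1.37 in PWK/PhJ. The lowest mouse of the first 4 strains had 8.79 CPM and the highest of the last 4 had 6.84, in Drd1+ neurons, and the strain term had an adjusted p of 4.07e-10. Pcdhb14 was highest in 129S1/SvImJ in both neuron classes, with 19.5 ± 2.32 CPM in Drd1+ and 19.4 ± 2.30 in Drd2+ neurons, and lowest in PWK/PhJ at 8.13 ± 1.19 in the first and in NZO/HlLtJ at 7.26 ± 1.91 in the second (adjusted p = 5.5e-07 and 3.21e-07). Among the alpha genes, Pcdha1 was singled out after its values were seen, at 6.07 ± 2.35 CPM in PWK/PhJ, 4.72 ± 2.16 in CAST/EiJ and 4.24 ± 2.01 in WSB/EiJ and at 0.44 to 1.32 in the other strains of Drd1+ neurons (adjusted p = 7.34e-09). These 3 strains are the wild-derived ones, and single mice of WSB/EiJ (1.68 CPM) and A/J (2.26 CPM) overlapped. The count filter kept Pcdha1 mainly through these 3 strains, and it was picked for this pattern, so its adjusted p is no independent support.

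**Figure D2:**
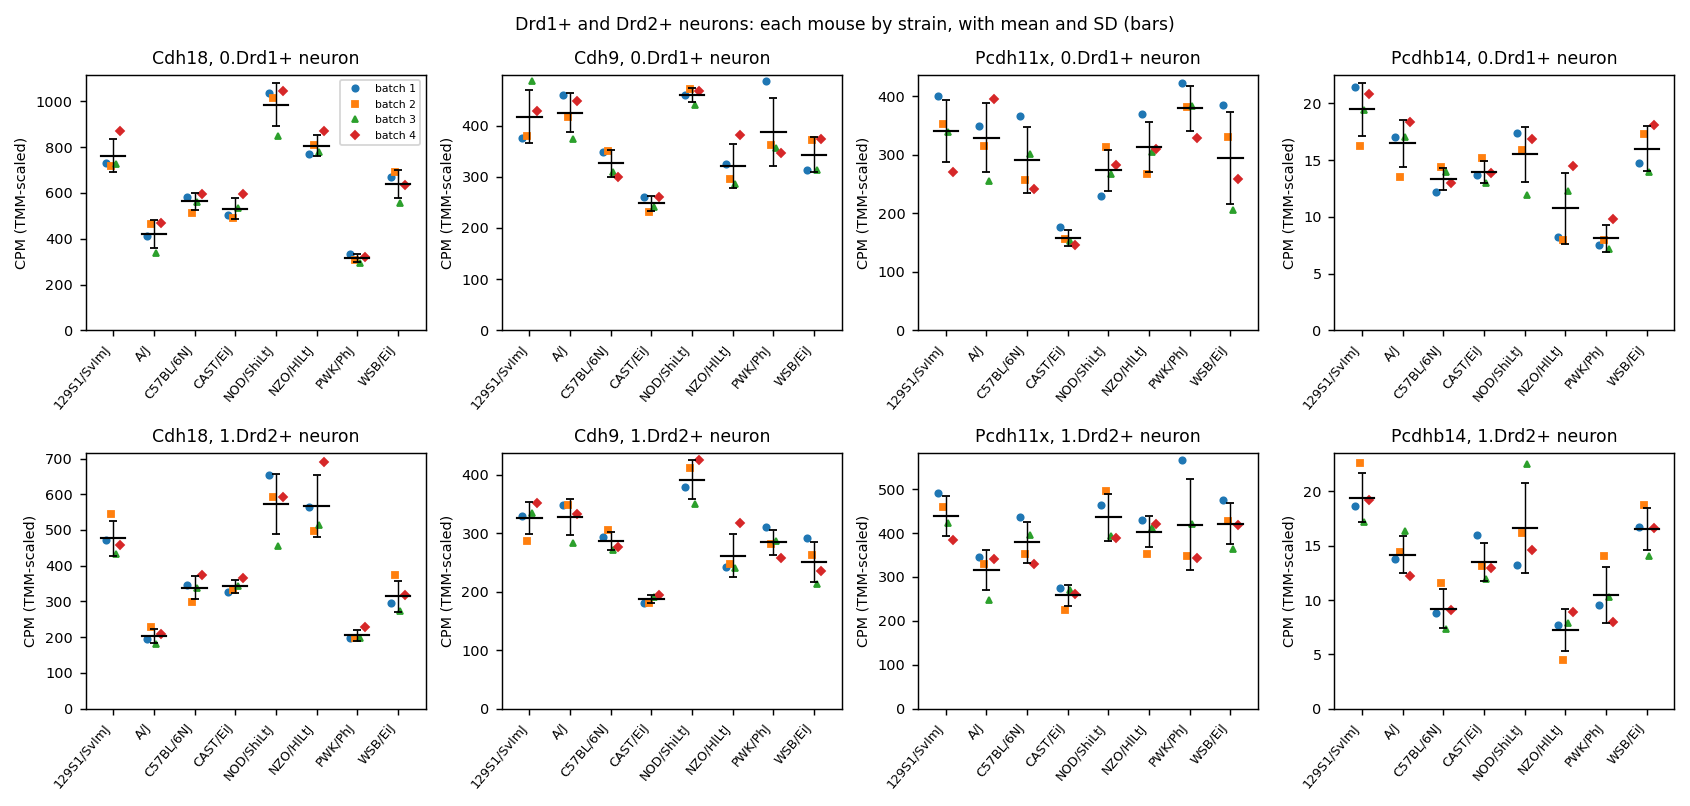
TMM-scaled CPM (vertical axis) of cadherin and protocadherin genes in Drd1+ and Drd2+ neurons of each mouse, by strain (horizontal axis) and batch (symbol), with mean and SD. Cdh18 is lowest in the 4 PWK/PhJ mice of Drd1+ neurons and Pcdh11x is lowest there in the 4 CAST/EiJ mice, while in Drd2+ neurons 1 A/J mouse (248.5 CPM) lies among those of CAST/EiJ.

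In Drd2+ neurons Cdh18 again led (F = 84.2, adjusted p = 1.66e-21), with 574 ± 83.6 CPM in NOD/ShiLtJ and 567 ± 86.9 in NZO/HlLtJ, and 205 ± 15 in PWK/PhJ and 203 ± 20.2 in A/J. The low pair did not overlap with any other strain. Cdh10, which like Cdh6 guides retinal wiring, was at 290, 382, 536 and 426 CPM in WSB/EiJ and at 180, 182, 194 and 160 CPM in CAST/EiJ (adjusted p = 2.93e-07).

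Of the 9 clusters, oligodendrocytes had the largest share of tested members called. There 14 of 15 members were called, against 34.8% of all genes tested, and the median span was 1.63 on the log2 scale for the members against 0.68 for all genes. The members also had more counts there than the median gene (2277 against 816). All 7 type II cadherins and all 3 delta-1 protocadherins tested were called, and Pcdh17 was not (adjusted p = 0.0549).

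Cdh2 (N-cadherin) had the largest strain term in oligodendrocytes (F = 206, adjusted p = 4.07e-50). NOD/ShiLtJ mice had 402, 506, 533 and 507 CPM, C57BL/6NJ mice 471, 394, 581 and 398, and WSB/EiJ mice 327, 344, 340 and 408. The other strains had 110 ± 13 CPM (129S1/SvImJ), 84.3 ± 19.8 (A/J), 58.3 ± 10.8 (PWK/PhJ), 55.2 ± 8.93 (CAST/EiJ) and 54.8 ± 12.1 (NZO/HlLtJ). The lowest mouse of the 3 high strains had 327 CPM and the highest of the other 5 strains had 124 CPM, so that the SD of Cdh2 over all mice in this cluster is that of separate groups of strains. Summed astrocyte markers in oligodendrocytes were lowest in the same 3 strains, with 201 CPM in C57BL/6NJ, 204 in WSB/EiJ and 223 in NOD/ShiLtJ against 243 to 373 in the other 5, and their part in the Cdh2 difference was not tested. In astrocytes Cdh2 was not called (adjusted p = 0.083), with strain means from 529 ± 126 to 712 ± 88.3 CPM.

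Pcdh15 was at 435, 512, 473 and 535 CPM in oligodendrocytes of CAST/EiJ and at 27.7, 54.5, 60.8 and 42.7 CPM in those of PWK/PhJ (F = 81.0, adjusted p = 6.36e-34). Neither strain overlapped with any other, the other 6 having means from 298 ± 37.4 (NOD/ShiLtJ) to 150 ± 33.6 CPM (C57BL/6NJ). Pcdh15 is also abundant in polydendrocytes, the precursors of oligodendrocytes. The summed polydendrocyte markers Pdgfra, Vcan and Cspg4 were 11 to 19.4 CPM by strain in oligodendrocytes, with 12.0 in CAST/EiJ and 17.2 in PWK/PhJ, against at least 1062 in the polydendrocyte and oligodendrocyte cluster. Pcdh15 was highest in Nxph1+ interneurons and the second Drd1+ cluster, whose own markers are not given by strain here. The part of RNA from any of these clusters in the Pcdh15 difference was not tested.

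Pcdh9 ran from 21620 ± 1739 CPM in oligodendrocytes of NZO/HlLtJ over 19470 ± 1062 in 129S1/SvImJ to 9147 ± 547 in WSB/EiJ (adjusted p = 1.09e-34). WSB/EiJ mice had 9463, 9756, 8696 and 8673 CPM and lay below all other mice. Cdh19 ran from 987 ± 140 CPM in 129S1/SvImJ to 425 ± 61.9 in PWK/PhJ (adjusted p = 5.85e-18). Summed astrocyte markers were 243 CPM in oligodendrocytes of 129S1/SvImJ and 373 in those of PWK/PhJ, and their part in the Cdh19 difference was not tested. Cdh8, at a low level in this cluster, was at 139, 120, 98.2 and 81.8 CPM in A/J and at 14.95, 17.9, 15.6 and 14.1 CPM in CAST/EiJ (adjusted p = 2.93e-19). Its highest levels were in Drd1+ and Drd2+ neurons. Summed projection-neuron markers were 349 CPM in oligodendrocytes of A/J and 368 in those of CAST/EiJ, and the part of neuronal RNA in the Cdh8 difference was not tested.

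Cdh18 was low in oligodendrocytes of 7 strains, with means of 5.26 to 9.40 CPM, and at 89.8, 90.8, 170 and 100 CPM in PWK/PhJ (113 ± 38.5, adjusted p = 3.19e-16). The count filter kept Cdh18 in this cluster mainly through PWK/PhJ, the strain where it was high, so the adjusted p is no independent support. Each PWK/PhJ mouse was above each other mouse, whereas in Drd1+ neurons the PWK/PhJ mice were the lowest. The summed markers of projection neurons (Drd1, Tac1, Pdyn, Drd2, Adora2a and Penk) were 352 CPM in PWK/PhJ oligodendrocytes, within the 349 to 384 of all strains. Markers of Slc17a7+ neurons, where Cdh18 was highest at 3868 CPM, are not given by strain here or for the astrocytes and macrophages below. The part of neuronal RNA in these Cdh18 differences was not tested. Astrocyte markers (Aqp4, Gja1 and Slc1a3) were 373 CPM in PWK/PhJ oligodendrocytes, the highest of the strains (from 201), and their part in the result was not tested.

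**Figure D3:**
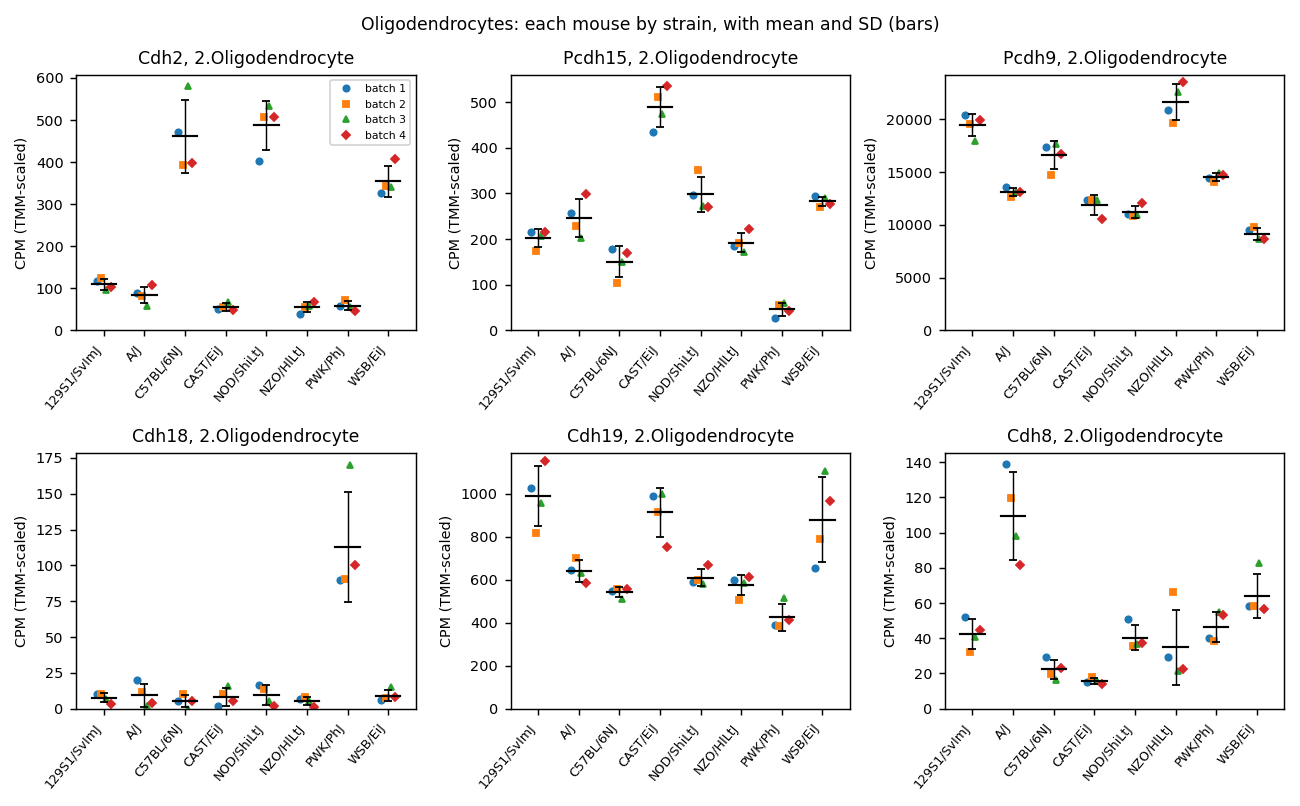
TMM-scaled CPM (vertical axis) in oligodendrocytes of each mouse, by strain (horizontal axis) and batch (symbol), with mean and SD, for 6 genes. Cdh2 lies at 327 CPM or more in NOD/ShiLtJ, C57BL/6NJ and WSB/EiJ and at 124 or less in the other strains, and Cdh18 is high in PWK/PhJ.

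In astrocytes 8 of 18 members were called, against 21.5% of all genes. The members had more counts there than the median gene (1799 against 523), and the part of this in the share was not tested. The median span was 0.77 on the log2 scale for the members and 0.74 for all genes. Pcdh11x ran from 453 ± 21.7 CPM in 129S1/SvImJ to 202 ± 20.8 in PWK/PhJ (adjusted p = 1.33e-10), and these groups did not overlap. Cdh13 was at 65.5 ± 25.6 CPM in WSB/EiJ and 12.9 ± 7.12 in PWK/PhJ (adjusted p = 7.49e-07). Cdh10 was at 977 ± 114 CPM in 129S1/SvImJ and 600 ± 48.3 in NZO/HlLtJ (adjusted p = 0.000122). Cdh18 was at 40.4 ± 12.4 CPM in PWK/PhJ, 28.2 ± 22.2 in CAST/EiJ and 4.29 to 9.38 in the other strains (adjusted p = 9.61e-06), with projection-neuron markers of 322 CPM in PWK/PhJ and 313 to 375 over strains. These 2 strains also had the lowest polydendrocyte markers in astrocytes (18.2 CPM in PWK/PhJ and 11.3 in CAST/EiJ, against 27.1 to 65.2) and the highest astrocyte markers (3762 and 4374, against 3099 to 3625), whose part in the Cdh18 difference was not tested. As in oligodendrocytes, the count filter kept Cdh18 in astrocytes mainly through the strains where it was high.

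The oligodendrocyte genes Pcdh9 and Cdh19 also differed in astrocytes. Pcdh9 ran from 4163 ± 334 CPM in NZO/HlLtJ to 2533 ± 187 in WSB/EiJ (adjusted p = 5.73e-10), the strains that were also highest and lowest in oligodendrocytes. Mbp and Mog summed to 2623 to 3057 CPM in astrocytes by strain, against 8274 to 8795 in oligodendrocytes, and their part in the Pcdh9 difference was not tested. Cdh19 took another order, with 341 ± 68.3 CPM in NOD/ShiLtJ and 61.5 ± 18.1 in CAST/EiJ (adjusted p = 0.000145), where oligodendrocytes of CAST/EiJ had 913 ± 113. Summed polydendrocyte markers in astrocytes were also lowest in CAST/EiJ, at 11.3 CPM, against 50.02 in NOD/ShiLtJ and up to 65.2 in C57BL/6NJ, and astrocyte markers were highest in CAST/EiJ, at 4374 CPM against 3099 to 3762 in the other strains. Their part in the Cdh19 difference was not tested.

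In macrophages, 2 of 4 members tested were called, against 24.8% of all genes. Cdh23 was at 569, 491, 570 and 539 CPM in 129S1/SvImJ (542 ± 36.8), with 497 ± 115 in NOD/ShiLtJ and 435 ± 74.9 in A/J. It was at 264 ± 82.1 CPM in CAST/EiJ, 241 ± 91.7 in NZO/HlLtJ and 232 ± 44.3 in C57BL/6NJ, and at 114 ± 25.8 in WSB/EiJ and 106 ± 21.2 in PWK/PhJ (F = 26.6, adjusted p = 2.47e-18). The lowest pair did not overlap with any other strain, while the middle and upper strains overlapped in single mice. Astrocyte markers summed to 4350 CPM in 129S1/SvImJ macrophages against 236 to 535 in the other strains, of which Slc1a3 alone gave 4288, while Aqp4 (24.8) and Gja1 (37.0) were low. Their part in the Cdh23 order was not tested.

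Macrophages of PWK/PhJ also had Cdh18, with 221, 111, 495 and 241 CPM (267 ± 162), where the other strains had means from 6.01 to 32.5 CPM (adjusted p = 2.82e-07). The 32.5 CPM of NOD/ShiLtJ rest on 1 mouse of batch 2 at 130 CPM, which exceeds the lowest PWK/PhJ mouse, and its other 3 mice were at 0. Projection-neuron markers were 436 CPM in PWK/PhJ macrophages and 351 to 458 over strains. The sum of Mbp and Mog was highest in PWK/PhJ macrophages, at 3724 CPM against 3142 to 3595 in the other strains, and the astrocyte sum was lowest there, at 236 CPM. Their part in the Cdh18 difference was not tested. Cdh18 in PWK/PhJ thus rested on 106 counts in all 4 mice, with at least 10 in each. The count filter kept Cdh18 in macrophages mainly through PWK/PhJ, the strain where it was high. Its adjusted p is therefore no independent support, and its place among the called members has the same limit.

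**Figure D4:**
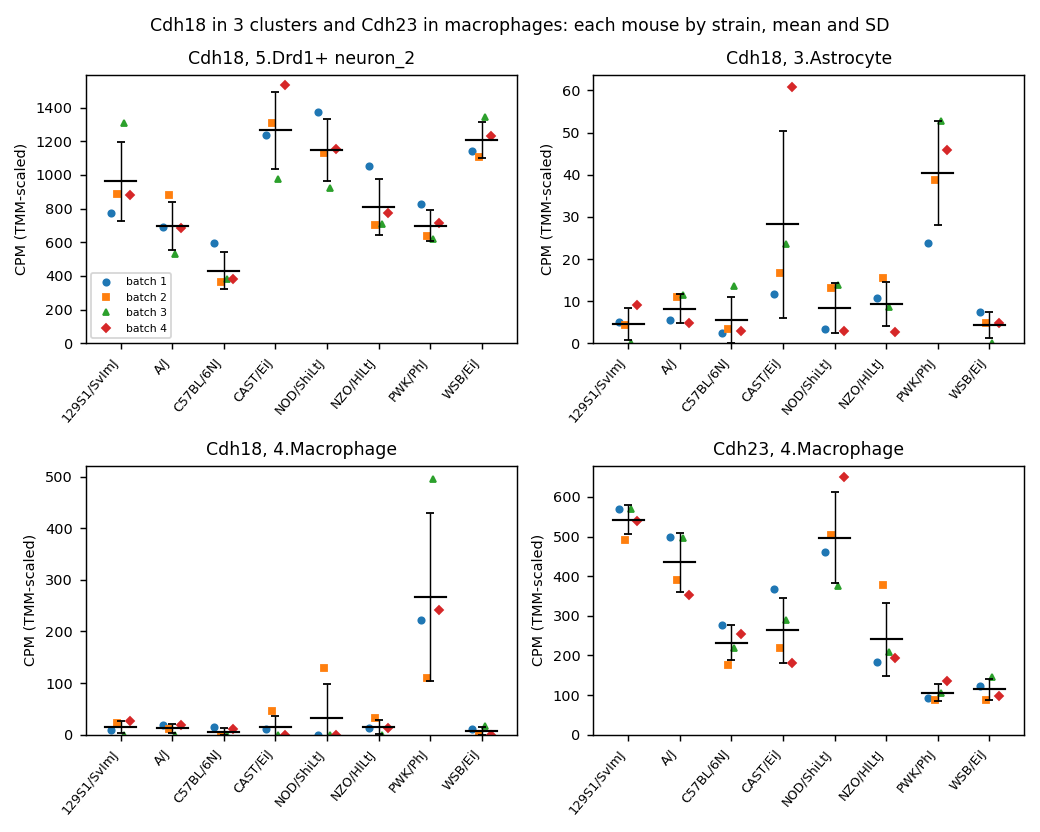
TMM-scaled CPM (vertical axis) of Cdh18 in the second Drd1+ cluster, astrocytes and macrophages and of Cdh23 in macrophages, for each mouse by strain (horizontal axis) and batch (symbol), with mean and SD. Cdh18 reaches 495 CPM in macrophages of PWK/PhJ, and Cdh23 is lowest in WSB/EiJ and PWK/PhJ, with CAST/EiJ, NZO/HlLtJ and C57BL/6NJ between these and the other 3 strains; the highest mice of CAST/EiJ and NZO/HlLtJ overlap with A/J.

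The second Drd1+ cluster had 12 of 20 members called, against 17.3% of all genes. The members also had more counts there than the median gene (2114 against 478), and the part of this in the share was not tested. Cdh18 was there highest in CAST/EiJ at 1264 ± 231 CPM and WSB/EiJ at 1206 ± 107 and lowest in C57BL/6NJ at 430 ± 110 (adjusted p = 1.1e-10), an order that differs from that of Drd1+ neurons. Pcdh15 ran from 3382 ± 321 CPM in NOD/ShiLtJ to 1464 ± 197 in CAST/EiJ (adjusted p = 2.12e-07), without overlap. CAST/EiJ was thus lowest for Pcdh15 here and highest in oligodendrocytes. Cdh13 ran from 852 ± 169 CPM in CAST/EiJ to 353 ± 123 in PWK/PhJ (adjusted p = 4.48e-08). The sum of Mbp and Mog in this cluster ran from 976 CPM in NOD/ShiLtJ to 1262 in CAST/EiJ. Projection-neuron markers ran from 986 CPM in NZO/HlLtJ to 1494 in PWK/PhJ. The part of these markers in the differences was not tested.

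Clusters with fewer nuclei gave few calls. In Nxph1+ interneurons 1 of 19 members was called, against 1.53% of all genes. This was Pcdh9, from 4963 ± 1328 CPM in NZO/HlLtJ to 1872 ± 880 in WSB/EiJ (adjusted p = 0.0054). It was lost without batch 1, 3 or 4 (adjusted p = 0.13, 0.0865 and 0.0657) and without the batch block (0.0562). In endothelium 1 of 19 was called, against 3.23%. This was Cdh18, at 480 ± 573 CPM in NOD/ShiLtJ, where the mouse of batch 3 had 1337 and the other mice 149 to 230 (adjusted p = 0.0365). The lowest mean was 158 ± 64.0 CPM in A/J (n = 3), while in the fit with batch WSB/EiJ was highest (309 ± 99.2 CPM, n = 3) and C57BL/6NJ lowest (158 ± 112). The call ended without batch 2, 3 or 4 (adjusted p = 0.226, 0.0826 and 0.0691) and without the block (0.623), and projection-neuron markers ranged from 439 to 861 CPM in endothelium by strain. Endothelial Cdh5 was not called (adjusted p = 0.699), with strain means from 171 ± 84.7 to 289 ± 111 CPM. In the polydendrocyte and oligodendrocyte cluster 0 of 16 members were called by edgeR, against 1.24% of all genes, with 5 at an unadjusted p under 0.05 and 1 called by DESeq2.

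Over clusters, Cdh18 was called in 7 of the 9 clusters where it was tested and Pcdh9 in 6 of 9. Cdh10, Cdh13 and Pcdh11x were called in 5 of 8 each. The endothelial call of Cdh18 and the Nxph1+ interneuron call of Pcdh9 are included, although they were lost when single batches were left out. Also included are the Cdh18 calls in oligodendrocytes, astrocytes and macrophages. In these clusters the count filter kept Cdh18 mainly through the strains where it was high. The number of clusters with a Cdh18 call is therefore no independent support for a wide strain effect. The share of all genes called ran from 1.24% to 61.7% over the 9 clusters.

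Contrasts of 1 strain with the mean of the remaining 7 were taken from the same fits. The 8 contrasts share mice, so that their counts are not independent. Of 49 members in Drd1+ neurons, 11 were called in 129S1/SvImJ, all higher there, against 12.3% of all genes. In A/J 6 were called (4 higher and 2 lower), against 17.2% of all genes, and in C57BL/6NJ 12 (3 higher and 9 lower), against 13.9%. CAST/EiJ had 19 called (9 higher and 10 lower), against 32.8%, and PWK/PhJ 14 (4 higher and 10 lower), against 34.3%. NOD/ShiLtJ had 10 called (8 higher and 2 lower), against 15.9%, NZO/HlLtJ 11 (4 higher and 7 lower), against 19.7%, and WSB/EiJ 10 (6 higher and 4 lower), against 17.0%. The share of members was thus furthest above that of all genes in C57BL/6NJ (24.49%) and 129S1/SvImJ (22.45%). It was below that of all genes in A/J (12.24%) and PWK/PhJ (28.57%), and nearer to it in the other strains. Over all genes called, the split was 1037 higher and 615 lower in 129S1/SvImJ, 1417 and 894 in A/J, 1076 and 797 in C57BL/6NJ, 2263 and 2140 in CAST/EiJ, 1263 and 870 in NOD/ShiLtJ, 1476 and 1174 in NZO/HlLtJ, 2285 and 2327 in PWK/PhJ and 1297 and 980 in WSB/EiJ. Leaving out a batch lowered some counts by more than 1.5 times: to 5 of 12 in C57BL/6NJ without batch 1 or batch 3, to 12 of 19 in CAST/EiJ without batch 1 or 2, to 6 and 5 of 11 in NZO/HlLtJ without batch 1 and batch 3, to 9 of 14 in PWK/PhJ without batch 2, and to 6 of 10 in WSB/EiJ without batch 1, 2 or 4.

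Of 43 members in Drd2+ neurons, 12 were called in 129S1/SvImJ, again all higher, against 11.1% of all genes. In A/J 8 were called (4 higher and 4 lower), against 15.2% of all genes, and in C57BL/6NJ 10 (3 higher and 7 lower), against 11.1%. CAST/EiJ had 15 called (8 higher and 7 lower), against 28.1%, and PWK/PhJ 10 (2 higher and 8 lower), against 30.3%. NOD/ShiLtJ had 10 called (9 higher and 1 lower), against 12.1%, NZO/HlLtJ 10 (5 higher and 5 lower), against 18.5%, and WSB/EiJ 9 (7 higher and 2 lower), against 15.3%. Here the share of members was furthest above that of all genes in 129S1/SvImJ (27.91%), C57BL/6NJ (23.26%) and NOD/ShiLtJ (23.26%). It was below that of all genes in PWK/PhJ (23.26%) and nearer to it in the other strains. Over all genes called, the split was 857 higher and 558 lower in 129S1/SvImJ, 1164 and 786 in A/J, 879 and 544 in C57BL/6NJ, 1896 and 1706 in CAST/EiJ, 970 and 585 in NOD/ShiLtJ, 1376 and 988 in NZO/HlLtJ, 1943 and 1938 in PWK/PhJ and 1093 and 866 in WSB/EiJ. The counts fell to 5 and 4 of 8 in A/J without batch 1 and batch 2, to 6 of 10 in C57BL/6NJ without batch 2 or 4, and to 5 of 9 in WSB/EiJ without batch 3 and without the batch block.

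Drd1+ and Drd2+ neurons of the same mice differed in the level of several members. As a description of the log2 ratio of Drd2+ over Drd1+ level (prior count 2), Cdh22 averaged -1.15, Pcdh19 -0.87, Cdh18 -0.75, Cdh13 -0.74 and Cdh9 -0.34, each below 0 in all 32 mice. Cdh6 averaged 0.70, above 0 in 32 of 32 mice, and Pcdh15 1.15, above 0 in 29 of 32. The 3 mice below 0 for Pcdh15 were NOD/ShiLtJ mice, whose mean was -0.07 ± 0.16.

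Whether the strain differences themselves differ between the 2 neuron classes was tested as an interaction with each mouse as a block. It was called for 15 of 50 members, against 4.58% of all 13791 genes tested. All called members were non-clustered genes, and none of the clustered protocadherins tested was called. The share is therefore not one of the families as a whole, and the part of count level in this split was not tested. Without each batch in turn, 10 to 11 members were called. Cdh6 had the largest interaction (adjusted p = 1.93e-12). Its log2 ratio was 0.22 ± 0.07 in NOD/ShiLtJ and 1.18 ± 0.24 in CAST/EiJ, and no mouse of the first reached the second. For Cdh13 (adjusted p = 2.98e-06) the ratio ran from -1.20 ± 0.14 in NZO/HlLtJ to -0.40 ± 0.08 in CAST/EiJ. Cdh18 (adjusted p = 2.59e-05) had -1.04 ± 0.11 in A/J and -1.02 ± 0.12 in WSB/EiJ, against -0.53 ± 0.16 in NZO/HlLtJ. Cdh4 (adjusted p = 4.99e-08) changed sign, with -0.64 ± 0.28 in C57BL/6NJ and 0.42 ± 0.34 in NOD/ShiLtJ, and Cdh10 (adjusted p = 0.000359) had its highest ratio in PWK/PhJ, 0.85 ± 0.27, and its lowest in NOD/ShiLtJ, 0.09 ± 0.24. Without the mouse block, the fit called 0 of the 50 members.

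**Figure D5:**
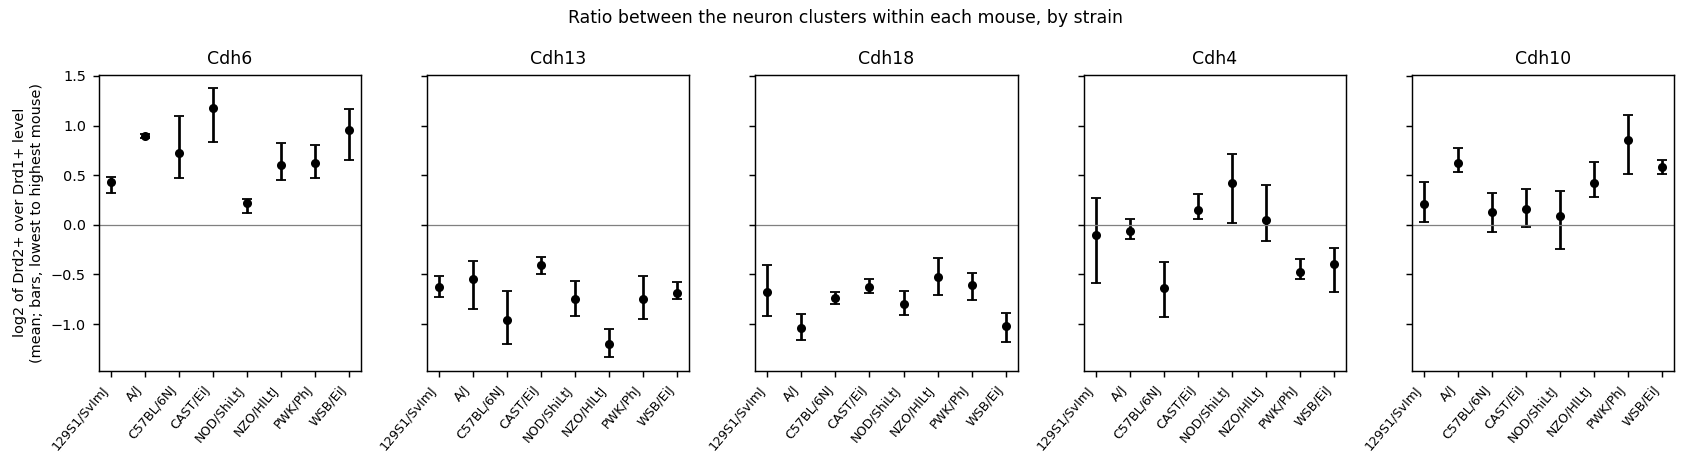
Log2 ratio of the Drd2+ over the Drd1+ level (vertical axis) by strain (horizontal axis) for the 5 members with the largest interaction F, with the mean and a bar from the lowest to the highest mouse. Cdh6 lies above 0 and Cdh13 and Cdh18 lie below 0 in each mouse, while Cdh4 crosses 0 between strains.

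Partners of the cadherins were followed by a list of 29 genes of catenins, other cadherin-type proteins and regulators. The strain term was called for 19 of 26 in both Drd1+ and Drd2+ neurons, against 61.7% and 55.9% of all genes. It was called for 7 of 21 in oligodendrocytes (34.8% of all genes), 6 of 13 in macrophages (24.8%), 4 of 21 in astrocytes (21.5%) and 5 of 23 in the second Drd1+ cluster (17.3%). In oligodendrocytes and astrocytes the list was thus at about the share of all genes. It was called for 0 of 19 in Nxph1+ interneurons, 0 of 21 in endothelium and 0 of 8 in the polydendrocyte and oligodendrocyte cluster. Clstn2, a calsyntenin of the postsynaptic side, was at 105 ± 7.56 CPM in PWK/PhJ and 14.1 ± 4.13 in 129S1/SvImJ in Drd2+ neurons (edgeR adjusted p = 6.55e-18). Ctnna3, an alpha-catenin that links cadherins to actin, ran from 783 ± 99.7 CPM in CAST/EiJ to 348 ± 53.0 in PWK/PhJ in Drd1+ neurons (adjusted p = 5.84e-13). Ctnna2, the neural alpha-catenin, ran from 1801 ± 127 CPM in NZO/HlLtJ to 726 ± 104 in WSB/EiJ in astrocytes (adjusted p = 5.46e-19). The median span of the list was 0.45 on the log2 scale in Drd1+ neurons, against 0.65 for all genes.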

How the data were processed

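Raw counts (UMIs per gene and barcode, all barcodes) and a table of nuclei with strain and cluster were deposited by the authors. Per the submitters' processing notes, bcl2fastq 2.20.0.422 and Cell Ranger ARC 2.0.0 were used with build mm10 (GRCm38). Per the deposited file description, strains came from Demuxlet, doublets were removed with DoubletFinder, and nuclei were filtered on detected genes and mitochondrial counts. The accessibility values were not used here, only the positions of the peak index.

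Counts were summed per mouse (batch and strain) and cluster, keeping sums of at least 10 nuclei. In 9 clusters with at least 3 mice of every strain, edgeR 4.0.16 (R 4.3.3) fitted strain and batch to genes kept by filterByExpr, with TMM scaling and the robust quasi-likelihood F-test. Benjamini-Hochberg adjustment ran over all genes of a cluster, and calls used 0.05. The interaction had a block for each mouse. DESeq2 1.42.0, other scalings and filters, a minimum of 25 nuclei, fits without the batch block and fits without each batch were alternatives. The strain term in Drd1+ neurons and oligodendrocytes and the interaction were also tested on simulated counts.

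The batch pairs the mice because the labels say that each pooled 1 mouse of every strain. Over 9050 genes in Drd1+ neurons, deviations from strain means correlated with a median r of 0.184 between mice of the same batch (76 of 112 pairs over 0.1, lowest -0.31). Between mice of other batches the median was -0.07. That value is no separate contrast, since deviations from the mean of the same mice pull it down.

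One gene of the oligodendrocyte marker list is not reported here and was left out of its sums. Members, lists and tests were chosen with earlier results of these data known. Genes were named by rule: the called members at 10 CPM or more with the largest F (12 in Drd1+ neurons, 6 in Drd2+ neurons, oligodendrocytes and astrocytes, 3 in other clusters), those past 1 on the log2 scale with all mice of a strain apart, the 5 largest interactions, those at least 2 times higher in 1 cluster, and a fixed list.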

Additional observations from a re-analysis of the deposited data

Results flagged for a closer look

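Within strains with 4 mice, 293 sets of values of named members were examined for 1 mouse far from the other 3, and 24 (8.19%) held one, where chance gives about 1 in 20. In Drd1+ neurons these mice were 129S1/SvImJ of batch 4 for Cdh18 (869.8 CPM) and Cdh22 (61.17), NOD/ShiLtJ of batch 3 for Cdh18 (849), NZO/HlLtJ of batch 2 for Cdh22 (19.99) and Cdh6 (64.85), PWK/PhJ of batch 1 for Cdh9 (486.7), CAST/EiJ of batch 3 for Cdh11 (176.1) and 129S1/SvImJ of batch 2 for Pcdh9 (3378). In Drd2+ neurons they were PWK/PhJ of batch 4 for Cdh18 (227.7 CPM), NZO/HlLtJ of batch 4 for Cdh9 (317.2), C57BL/6NJ of batch 1 for Pcdh9 (1589) and A/J of batch 3 for Pcdh11x (248.5).

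In oligodendrocytes, CAST/EiJ and NOD/ShiLtJ of batch 4 stood apart for Pcdh9 (10520 and 12090 CPM), PWK/PhJ of batch 3 for Cdh18 (170.1), and NOD/ShiLtJ of batch 1 and WSB/EiJ of batch 3 for Cdh8 (51.21 and 82.88). In astrocytes it was C57BL/6NJ of batch 3 for Cdh13 (61.63 CPM) and Cdh18 (13.7). In macrophages it was NZO/HlLtJ of batch 2 for Cdh23 (377.5 CPM) and NOD/ShiLtJ of batch 2 for Cdh18 (130.1). In the second Drd1+ cluster it was C57BL/6NJ of batch 1 for Cdh18 (594.6 CPM), in Nxph1+ interneurons NOD/ShiLtJ of batch 4 for Pcdh9 (4186) and in endothelium NOD/ShiLtJ of batch 3 for Cdh18 (1337).

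Strain effects that differed between Drd1+ and Drd2+ neurons by the edgeR interaction were those of Cdh6 (adjusted p = 1.93e-12), Cdh4 (4.99e-08), Cdh13 (2.975e-06), Cdh18 (2.587e-05), Cdh8 (0.0002739), Pcdh7 (0.0003383), Cdh10 (0.0003588), Cdh11 (0.0003736), Cdh7 (0.001204), Pcdh11x (0.001769), Pcdh10 (0.004576), Pcdh17 (0.008219), Pcdh19 (0.01307), Pcdh15 (0.02523) and Pcdh9 (0.04981).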

How the results depend on the processing

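Of the counts of called members under all alternatives, 184 stayed within 1.5 times the reported count, 44 fell below and 11 rose above. Asking for a span of at least 1 on the log2 scale left 20 members in Drd1+ neurons, 20 in Drd2+ neurons, 5 in astrocytes and 7 in the second Drd1+ cluster. Asking for a fold change of at least 1 on that scale left, in Drd1+ neurons, 1 in 129S1/SvImJ, 1 in A/J, 3 in C57BL/6NJ, 5 in CAST/EiJ, 1 in NOD/ShiLtJ, 2 in NZO/HlLtJ, 5 in PWK/PhJ and 4 in WSB/EiJ. In Drd2+ neurons it left 1, 0, 0, 5, 1, 2, 4 and 2 in the same order. With no filter on low counts, calls numbered 4 in macrophages, 7 in endothelium, 4 in Nxph1+ interneurons and 4 in the polydendrocyte and oligodendrocyte cluster, 12 in A/J and 16 in NOD/ShiLtJ in Drd1+ neurons, and 15 in A/J and 14 in WSB/EiJ in Drd2+ neurons, since more genes were tested. DESeq2 called 2 in endothelium and 1 in the polydendrocyte and oligodendrocyte cluster. The fit without the batch block called 0 in endothelium, 0 in Nxph1+ interneurons, 5 in WSB/EiJ in Drd2+ neurons and 0 for the interaction; the block changed no other count by over 1.5 times.

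Without each batch in turn, counts ranged from 0 to 1 in Nxph1+ interneurons and 0 to 2 in endothelium. In Drd1+ neurons they ranged from 5 to 11 in C57BL/6NJ, 12 to 16 in CAST/EiJ, 5 to 9 in NZO/HlLtJ, 9 to 11 in PWK/PhJ and 6 to 8 in WSB/EiJ, and in Drd2+ neurons from 4 to 9 in A/J, 6 to 8 in C57BL/6NJ and 5 to 8 in WSB/EiJ. The cause of these changes was not tested. With at least 25 nuclei per sum, endothelium, Nxph1+ interneurons and the polydendrocyte and oligodendrocyte cluster had too few mice for a fit. Each strain term of a named member was compared under each alternative, and 322 of these comparisons kept their side of the threshold while 8 lost it. All 8 were those of Pcdh9 in Nxph1+ interneurons or of Cdh18 in endothelium. The summed counts limit the tests: 39 members were tested in no cluster, and in macrophages 4 were tested.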
